A study of Mus musculus with 2 samples.

Results

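The genes examined here encode the adhesion receptors by which platelets bind the injured vessel wall and one another. They are 8 of the 27998 genes in the count tables and were chosen by name: Itga2b, Itgb3, Gp1ba, Gp1bb, Gp5, Gp6, Gp9 and Cd9. Megakaryocytes make these proteins and pass them on to the platelets they shed. The alpha chain encoded by Itga2b, also known as CD41, pairs with the beta chain encoded by Itgb3 to form the fibrinogen receptor that links platelets together. Gp1ba, Gp1bb, Gp9 and Gp5 encode the subunits of the GPIb-IX-V complex, which catches von Willebrand factor under flow. Gp6 encodes the collagen receptor GPVI, and Cd9 encodes a tetraspanin, a small membrane protein that sits beside integrins on platelets and on many other cells. In the fetal liver, CD41 is also known from early hematopoietic progenitors.

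All values come from scRNA-seq of the liver of 1 wild-type C57BL/6 mouse embryo (C57BL/6J in the methods) at E12.5, with no treatment and no altered allele. According to the labels and methods, the cells were sorted by FACS to remove debris, dead cells and doublets. They were then processed as 2 technical replicate libraries, whereas the submitters' design text speaks of 2 suspensions. The libraries were treated here as technical replicates of 1 liver, and the spread between them was read as technical. Cell types were those of the deposited annotation, which names 9 types in 10537 cells. Megakaryocytes (Mk) numbered 79 cells in library 1 and 56 in library 2, and hematopoietic stem and progenitor cells, which the table spells HPSC, numbered 213 and 208. Levels are unique molecular identifiers (UMIs, which count captured RNA molecules) of a gene per 1000000 UMIs of a cell type (CPM). Their 95% confidence intervals are exact Poisson intervals, and those of shares of cells are exact binomial (Clopper-Pearson) intervals. Both cover counting error only. Because there was 1 liver, no test between samples was possible, and the clusters had been made from the same counts, so the difference of Mk cells from other types is a description.

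The libraries differed in depth. Kept cells had at least 504 UMIs in library 1 and at least 4387 in library 2. Mk cells held 770048 UMIs in library 1, with a median of 5699 per cell, and 1014143 UMIs in library 2, with a median of 16944.5. Of the Mk cells of library 1, 35 had fewer UMIs than any kept cell of library 2. HPSC medians were 16053 and 14956 UMIs. The libraries shared 31 cell barcodes, 1 of which was an Mk cell in either library, and none was an Mk cell in both.

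The sequences just before the gene starts are shown for 4 of the genes because the 8 genes rise together in Mk cells. They come from RefSeq (GRCm38.p6), which gave 7 of the 8 genes, all but Itgb3, and cover the 250 bases before the start in the direction of transcription. Capitals mark the letters AGATAA on either strand, its form AGATAG, and likewise the letters TGATAA with the form TGATAG, which are forms of the GATA motif. Gp1ba (chr11:70638872-70639121, plus strand) and Gp5 (chr16:30310782-30311031, minus strand) encode subunits of the same complex and held the most matches, Gp6 (chr7:4397745-4397994, minus strand) held a single match, and Gp9 (chr6:87777820-87778069, plus strand) held none.
Gp1ba: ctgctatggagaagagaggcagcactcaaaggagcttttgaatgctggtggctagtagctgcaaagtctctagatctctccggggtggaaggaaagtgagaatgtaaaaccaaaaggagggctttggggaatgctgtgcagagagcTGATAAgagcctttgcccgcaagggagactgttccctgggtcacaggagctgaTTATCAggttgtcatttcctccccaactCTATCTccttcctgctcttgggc
Gp5: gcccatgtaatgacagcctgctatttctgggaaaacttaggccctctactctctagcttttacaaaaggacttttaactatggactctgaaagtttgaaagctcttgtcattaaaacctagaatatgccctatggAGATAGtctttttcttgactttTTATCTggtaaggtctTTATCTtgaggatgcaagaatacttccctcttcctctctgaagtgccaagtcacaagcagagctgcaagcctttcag
Gp6: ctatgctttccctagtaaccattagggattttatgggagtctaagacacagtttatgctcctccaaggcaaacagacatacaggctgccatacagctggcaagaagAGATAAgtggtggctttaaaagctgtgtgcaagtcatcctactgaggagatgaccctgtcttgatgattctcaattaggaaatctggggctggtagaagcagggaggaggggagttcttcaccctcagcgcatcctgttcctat
Gp9: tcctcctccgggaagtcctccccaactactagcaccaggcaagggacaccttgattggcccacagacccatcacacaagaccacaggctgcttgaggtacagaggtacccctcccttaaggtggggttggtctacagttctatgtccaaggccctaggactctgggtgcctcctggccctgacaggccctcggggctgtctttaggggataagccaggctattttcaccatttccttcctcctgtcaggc

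Among the 7 promoters, 4 held a GATA match, compared with 26.5% of all 32851 promoters of this length. Gp1ba and Gp5 held 3 matches each, Gp6 and Gp1bb 1 each, and Itga2b, Gp9 and Cd9 none. The letters GGAAG on either strand, a form of the ETS motif, were found in 6 of the 7, all but Gp6, and in 64.1% of all promoters. Both kinds of match stood in 3 of the 7, those of Gp1ba, Gp1bb and Gp5, and in 15.8% of all promoters. Itga2b held 4 GGAAG matches, the nearest of them 25 to 21 bases before the RefSeq start. Its window (chr11:102469884-102470133, minus strand) lies mostly inside the gene as placed by GENCODE, whose positions are given below. All 4 matches thus lie after that start. The window of Cd9 (chr6:125494761-125495010, minus strand) overlaps its GENCODE gene in part. These matches are letters in a window and were not tied to binding of a factor.

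The Mk label was checked against 9 markers other than the 8 genes, among them Pf4, Ppbp, Plek, Treml1, Gata1, Nrgn, Thbs1 and Vwf. Their summed level was 17173 and 14232 CPM in Mk cells of libraries 1 and 2 and 262 and 248 CPM in HPSC, and all 9 were detected in Mk cells of both libraries. Single cells carried this label unevenly. At least 3 of the 9 markers were detected in 103 of the 135 Mk cells, 58 of 79 in library 1 and 45 of 56 in library 2. None of the 8 adhesion receptor genes was detected in 24 Mk cells, 16 in library 1 and 8 in library 2. These cells had between 505 and 39021 UMIs and a median of 0 of the 9 markers, and 2 of them held a Pf4 UMI. They held 11453 CPM of 10 matrix and imprinted genes (Col1a1, Col1a2, Col3a1, Dlk1, Ptn, Mdk, Meg3, Cdkn1c, Sparc and Igf1, chosen after their values were seen), compared with 245 CPM in the 98 Mk cells with 5 to 8 of the receptor genes. At least 10 UMIs of these genes were held by 13 of the 24 cells, 6 of 16 in library 1 and 7 of 8 in library 2. Of the 24, 4 cells of library 1 had 32.8%, 35.1%, 47.0% and 59.0% mitochondrial UMIs, and 1 cell of library 2 had 61.1% adult globin UMIs. The largest of these levels in the 24 cells was 2534 CPM of Cdkn1c, a cell cycle inhibitor, against 109 CPM in the 98 cells. The 24 cells thus held few or none of the markers of their label, and each level is given below with all Mk cells and again with the 103.

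Mk cells of both libraries held all 8 genes at higher levels than any other cell type. In library 1 and library 2, Itga2b reached 1051 CPM (95% confidence interval 979 to 1126) and 561 CPM (516 to 609), and its partner Itgb3 reached 343 CPM (303 to 387) and 183 CPM (158 to 212). Of the GPIb-IX-V subunits, Gp9 reached 1264 CPM (1185 to 1346) and 602 CPM (556 to 652). Gp1bb, whose product is bound to GPIb alpha, reached 1062 CPM (991 to 1138) and 789 CPM (735 to 845). Gp5 followed with 651 CPM (595 to 710) and 316 CPM (282 to 352), and Gp1ba, which encodes the chain that binds von Willebrand factor, was low with 131 CPM (107 to 159) and 60.1 CPM (46.0 to 77.3). Gp6 reached 181 CPM (152 to 213) and 56.2 CPM (42.6 to 72.8). Cd9 was the highest of the 8, with 1935 CPM (1838 to 2036) and 934 CPM (875 to 995). Among all genes by CPM in Mk cells, Cd9 ranked 89th in library 1 and 148th in library 2, and Gp1ba ranked 1242nd and 2340th.

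Together the 8 genes made up 0.662% of the UMIs of Mk cells in library 1 and 0.350% in library 2. Each molecule is counted once from its 3′ end, so these shares do not scale with transcript length, although genes can differ in how well they are captured. Cd9 gave 28.2% of the 8646 UMIs of the 8 genes, Gp1bb 18.7%, Gp9 18.3%, Itga2b 15.9%, Gp5 9.50%, Itgb3 5.20%, Gp6 2.27% and Gp1ba 1.87%. The order differed between libraries, with Gp9 above Gp1bb in library 1 (19.1% and 16.1%) and below it in library 2 (17.2% and 22.5%), and Gp6 above Gp1ba in library 1 only (2.73% and 1.98%, compared with 1.61% and 1.72%). The subunits of each receptor were thus counted unequally, with 1378 UMIs of Itga2b to 450 of Itgb3, and 1618 of Gp1bb and 1584 of Gp9 to 162 of Gp1ba. In GENCODE vM21, 1902 exonic bases of Gp1bb are shared with Sept5 on the same strand and 867 with Gm49601, so its count is uncertain. Sept5 had 16 and 14 UMIs in all kept cells and 0 in Mk cells. Itga2b (chr11:102453297-102470122), Itgb3 (chr11:104608000-104670476), Gp1ba (chr11:70639122-70642036), Gp1bb (chr16:18620317-18622403), Gp5 (chr16:30307685-30310779), Gp6 (chr7:4363965-4397744), Gp9 (chr6:87778072-87779768) and Cd9 (chr6:125460266-125494791) are placed on GRCm38, and no other member shares exonic bases on its own strand with another gene.

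**Figure D1:**
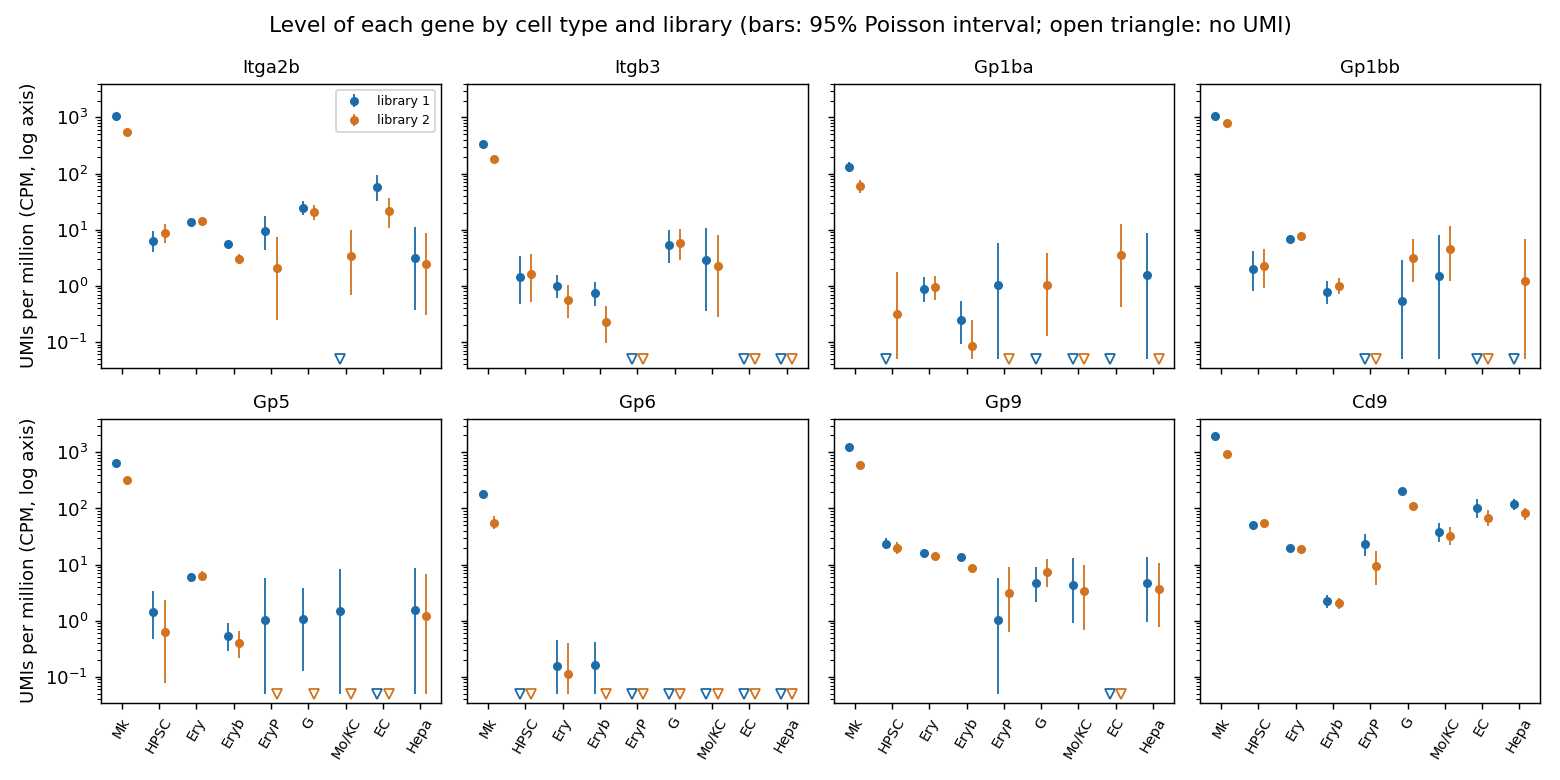
Level of each gene (CPM, log axis) in the 9 cell types of the deposited annotation, with points for library 1 (blue) and library 2 (orange), bars for the 95% Poisson interval and open triangles for no UMI. Mk cells are the highest in all 8 panels, Gp6 is nearly absent elsewhere, and Cd9 is detected in every type.

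In HPSC, the genes fell into those with clear counts and those near the level of free RNA. Free RNA enters every droplet, and its level was taken from the barcodes that held 1 to 50 UMIs. In libraries 1 and 2, Cd9 had 50.7 and 54.7 CPM, and Gp9 had 23.8 CPM (18.9 to 29.5) and 19.8 CPM (15.2 to 25.4). Itga2b was at 6.38 CPM on 22 UMIs and 8.64 CPM on 27 UMIs, and Itgb3 had 5 UMIs in each library. If 10% of the UMIs of HPSC were free RNA, 14.9 Itga2b, 17.5 Gp9 and 33.5 Cd9 UMIs would come from it, compared with the 49, 144 and 346 observed. For Gp1bb the same share would give 11.6 UMIs where 14 were counted, for Gp5 5.25 where 7 were counted, for Gp1ba 1.19 where 1 was counted, and for Gp6 1.35 where 0 were counted. The HPSC values of the latter 4 genes were thus within the counting error of free RNA at this assumed share. In erythroblasts the same share would give 278 Cd9 and 103 Gp1bb UMIs, more than the 127 and 55 counted. Itga2b and Gp9 exceeded theirs there, with 245 and 644 UMIs compared with 134 and 152. A share of 10% was thus too high for erythroblasts, and that of HPSC was not measured. The source of these counts was not tested.

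The comparison of Mk with HPSC kept genes with at least 20 UMIs in both types together in each library, 8570 in all. Gp1ba, Gp1bb, Gp5, Gp6 and Itgb3 had 0 to 7 UMIs in HPSC of a library and reached this number through Mk cells, so the filter itself largely fixed that they were higher, and no count is drawn from them. Itga2b, Gp9 and Cd9 had at least 22 UMIs in HPSC of each library. These 3 were at least 4-fold higher in Mk cells in both libraries, as were 3.15% of the 8570 genes, and also at least 16-fold higher, as were 1.16%. In the other direction, 3.33% of these genes were at least 4-fold lower in Mk cells in both libraries. The smallest ratio was that of Cd9, 38.1 (32.6 to 44.9) in library 1 and 17.1 (14.5 to 20.2) in library 2. The ratio of Gp9 was 53.1 (42.4 to 67.4) and 30.4 (23.4 to 40.1). For the integrin chains it was 165 (108 to 264) and 64.9 (44.2 to 99.4) for Itga2b, and 236 (100 to 734) and 115 (48.2 to 357) for Itgb3. The HPSC counts of Gp1bb and Gp5 lay within the counting error of free RNA at 10%, so their ratios rest on counts of untested source. They were 523 (253 to 1306) and 352 (170 to 879) for Gp1bb, and 449 (191 to 1388) and, on 2 HPSC UMIs, 493 (135 to 4088) for Gp5. With free RNA at 10% subtracted, they were 2459 for Gp1bb and 1723 for Gp5 over both libraries. These 2 values depend on the assumed share, which was too high for erythroblasts. Gp6 had no UMI in HPSC and was at least 208-fold higher in library 1 and at least 58.5-fold higher in library 2, with the floor of 3 counts per library. Gp1ba, also without an HPSC UMI in library 1, was at least 151-fold higher there and 188-fold (32.5 to 7544) higher in library 2 on 1 HPSC UMI.

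The share of cells with a UMI gave the same order of types. After each cell had been thinned to 3600 UMIs, which left 102 Mk cells and 419 HPSC, Cd9 was detected in 81.4% of Mk cells (72.5 to 88.4%) and 13.6% of HPSC (10.5 to 17.3%). Itga2b was detected in 67.6% (57.7 to 76.6%) and 2.15% (0.99 to 4.04%). Gp9 was detected in 67.6% (57.7 to 76.6%) and 8.11% (5.68 to 11.2%), and Gp1bb in 67.6% of Mk cells and 0.955% of HPSC. Gp5 was found in 52 of 102 Mk cells and 2 of 419 HPSC, Itgb3 in 37.3% and 0.716%, Gp1ba in 21.6% and 0 of 419 HPSC, and Gp6 in 18.6% and 0 of 419 HPSC. These shares come from 1 random draw. The mean over all draws was further from it for Itgb3 than for the other 7 genes, at 44.5% of Mk cells. Without thinning, the shares in Mk cells ran from 32.6% for Gp6 to 81.5% for Cd9, and in HPSC they were 24.0% for Gp9 and 48.7% for Cd9. Hepatoblasts, which should lack the platelet glycoproteins, held a UMI after thinning in 0 of 55 cells for Itga2b, Itgb3, Gp1ba, Gp1bb, Gp5 and Gp6 and in 1 of 55 for Gp9. Their median depth of 22346 UMIs was above that of Mk cells (11585) and HPSC (15462). For Cd9, which hepatoblasts held, the share in erythroblasts, where its level was lowest, was 0.717% after thinning, with a median depth of 7287 UMIs.

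All 8 genes were lower in library 2 than in library 1, with the ratio of library 1 to library 2 in Mk cells between 1.35 and 3.21. It was 3.21 (2.34 to 4.45) for Gp6, 2.18 (1.57 to 3.05) for Gp1ba, between 1.89 and 2.32 by its interval for Gp9, 2.07 (1.91 to 2.25) for Cd9, 2.06 (1.79 to 2.38) for Gp5, and 1.87 for Itga2b (1.68 to 2.09) and Itgb3 (1.54 to 2.27). Gp1bb differed least, 1.35 (1.22 to 1.49), and its interval lay below those of the other 7. These intervals cover counting error only and leave out the spread among cells. A single Mk cell of library 1 held 200 Gp1bb UMIs. The intervals are thus too narrow to rank the genes. Pf4, which encodes the alpha granule chemokine platelet factor 4, went the other way with a ratio of 0.934 (0.907 to 0.961). Among Mk cells with at least 4387 UMIs, the minimum of library 2, which left 44 cells of library 1, the ratios were smaller and ran from 1.26 for Gp1bb to 2.44 for Gp6. There the interval of Gp1bb (1.14 to 1.40) overlapped those of Itga2b (1.35 to 1.71) and Gp1ba (1.36 to 2.72). The part of the missing shallow cells in the difference was otherwise not tested. With the 103 cells with at least 3 of the 9 markers, the levels were 1193 and 648 CPM for Itga2b, 393 and 212 for Itgb3, 150 and 69.5 for Gp1ba, 1219 and 912 for Gp1bb, 741 and 365 for Gp5, 207 and 65.0 for Gp6, 1445 and 697 for Gp9, and 2213 and 1076 for Cd9, in library 1 and library 2. The ratios between libraries then ran from 1.34 for Gp1bb to 3.19 for Gp6.

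Single Mk cells either lacked the receptor genes or held most of them. All 8 genes were detected in 32 of the 135 cells, 20 in library 1 and 12 in library 2, 7 genes in 25 cells, 6 in 23 and 5 in 18. By contrast, 1 to 4 genes were detected in 13 cells and no gene in 24. All 98 cells with 5 or more genes held at least 4 of the 9 other Mk markers, with a median of 8. Of the 13 cells with 1 to 4 genes, 5 held at least 3 of the markers. The globin share of the 13 cells differed between the libraries. In library 1, 7 of them held 1.80% adult globin UMIs (Hbb-bs, Hbb-bt, Hba-a1 and Hba-a2), compared with 1.58% in the cells with 5 or more genes. In library 2, the other 6 held 21.4%, compared with 2.64%, and 3 of these single cells were at 57.7%, 50.7% and 26.4%. A further cell of library 2 held 18.2% embryonic globin UMIs (Hba-x, Hbb-y and Hbb-bh1), and the other 12 held 0.156% or less. The part of other cells or their RNA in these 13 cells was not tested.

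**Figure D2:**
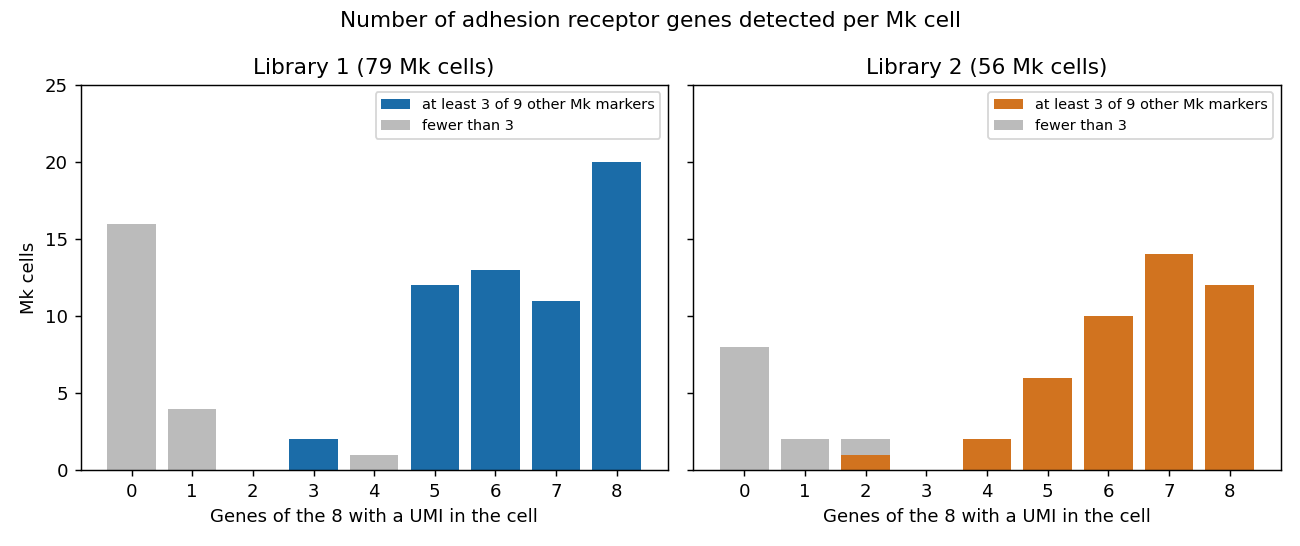
Number of the 8 genes with a UMI in each Mk cell of library 1 (left, 79 cells) and library 2 (right, 56 cells), with cells that held at least 3 of 9 other Mk markers in colour and the others in grey. Cells pile up at no gene (16 and 8 cells) and at 5 to 8 genes (56 and 42 cells).

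Detection of the less abundant genes was nested in that of Itga2b, also in that of Cd9, and nearly so in that of Gp9. Of the 105 Mk cells with an Itga2b UMI, 104 held Cd9, 100 Gp9, 95 Gp1bb, 89 Gp5, 84 Itgb3, 56 Gp1ba and 44 Gp6. The less abundant genes fell almost wholly within these cells, since all 56 cells with Gp1ba and all 44 with Gp6 also held Itga2b. Cd9 was likewise detected in all 56 and all 44 of these cells, and Gp9 in 56 and 43. The nesting was thus not particular to Itga2b. Gp1ba and Gp6 were both detected in 35 cells.

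The share of a cell's UMIs that came from the 8 genes had a wide range. It was at least 1% in 33 of the 135 Mk cells, between 0.5 and 1% in 10, above 0 but under 0.5% in 68, and 0 in 24. The highest share was 5.24%. The 33 cells held 49.3% of all UMIs of the 8 genes but 10.9% of the UMIs of Mk cells. These shares were 70.3% and 21.3% in library 1 and 19.3% and 2.98% in library 2. They were 29 cells of library 1 and 4 of library 2, with a median of 3926 UMIs (range 589 to 45569), compared with 16944.5 UMIs (711 to 57131) in the 68 cells. Their median mitochondrial share was 1.74%, compared with 2.65% in the 68 cells, and their median share of adult globin 1.28%, compared with 0.831%. The 1% and 0.5% limits were set with the values already known. They span unequal ranges, so the cell counts between them do not show separate groups of cells.

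**Figure D3:**
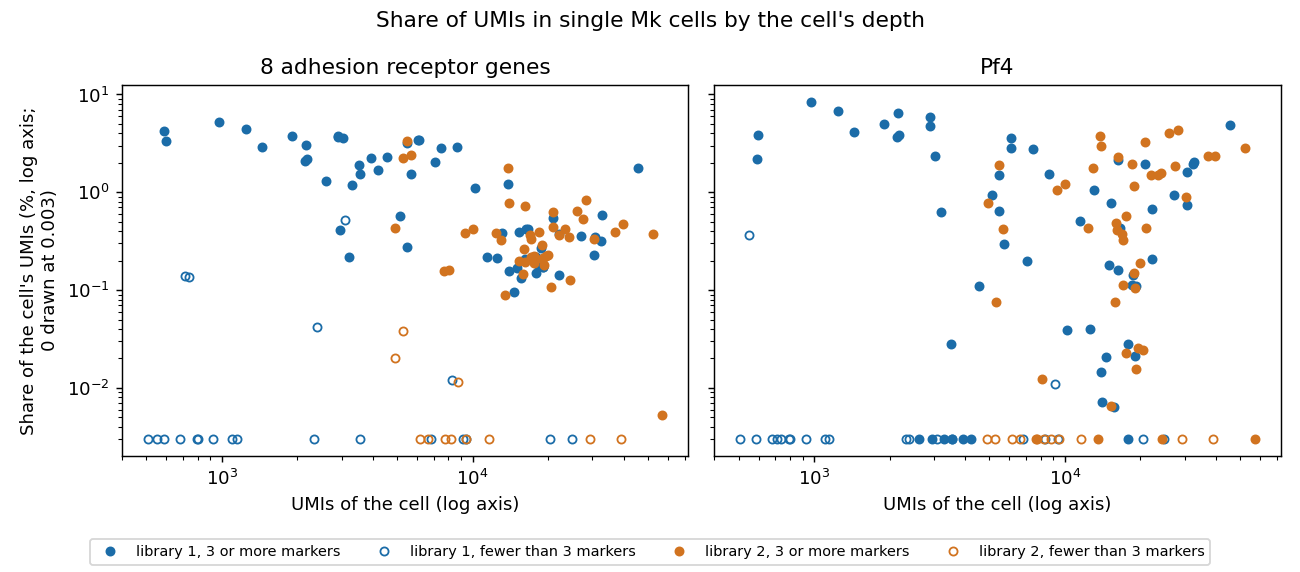
Share of each Mk cell's UMIs (%, log axis, 0 drawn at 0.003) from the 8 genes (left) and from Pf4 (right) against the cell's UMIs (log axis), by library (colour) and number of other Mk markers (filled for at least 3, open for fewer). The 8 genes reach their highest share, up to 5.24%, in shallow cells, and most of the deep cells lie under 0.5%.

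The spread of each gene among Mk cells was larger than counting error gives. The Pearson dispersion, the variance of the counts over that expected if all cells had 1 level at their own depth, would be about 1 for counting error only. It was 52.5 for Cd9, 30.2 for Gp9, 24.8 for Gp5, 23.4 for Itga2b, 18.5 for Gp1bb, 10.6 for Gp6, 7.15 for Itgb3 and 5.14 for Gp1ba. These values grow with the level of a gene and are not compared between genes. Thinned to 3600 UMIs, they ran from 2.56 for Gp1ba to 14.4 for Cd9, and in the 103 cells with at least 3 of the 9 markers from 5.65 to 57.1. Cd9 ranged from 0 to 27165 CPM among single Mk cells, with quartiles of 264, 687 and 2069 CPM. Itga2b ranged from 0 to 8842 CPM, with quartiles of 127, 428 and 1456 CPM. The 14 Mk cells with the most Gp6 UMIs held 63.3% of its UMIs and 9.60% of all UMIs of Mk cells. The 14 cells with the most Cd9 UMIs held 38.1% of those of Cd9 and 13.2% of all. The cells were picked by the same counts, and Gp6 had 196 UMIs, 35 of them in 1 cell, where Cd9 had 2437. These shares are therefore not compared between the genes.

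The level, which is a share of UMIs, fell with depth in library 1. When the Mk cells of each library were split by their UMIs into 3 groups of like size (terciles), the shallowest tercile of library 1 (505 to 2947 UMIs) had 7264 CPM of Cd9 (6430 to 8175), the middle tercile (3044 to 12547 UMIs) 3959 CPM (3658 to 4279) and the deepest tercile (13108 to 45569 UMIs) 1012 CPM (931 to 1098). Gp9 went from 3724 to 2294 to 810 CPM, Itga2b from 2694 to 2256 to 602 CPM, Gp1bb from 2404 to 1088 to 966 CPM, and Gp6 from 660 to 423 to 80.5 CPM. Gp5, Itgb3 and Gp1ba were highest in the middle tercile, at 1796, 615 and 348 CPM. A single cell of 45569 UMIs weighed on the deepest tercile. It held 35 of the 46 Gp6 UMIs there, 186 of the 463 Gp9 UMIs and 200 of the 552 Gp1bb UMIs. Of the 2352 UMIs of the 8 genes in that tercile, it held 805. The shallowest tercile exceeded the deepest by 7.18-fold (6.20 to 8.30) for Cd9 and 8.20-fold (4.83 to 13.6) for Gp6, and for Itgb3 by 1.51-fold, with an interval (0.824 to 2.57) that included 1. At least 3 of the 9 markers were held by 13 of the 26 cells of the shallowest tercile. In the others, 20 of 26 and 25 of 27 cells held them. UMIs of the 8 genes per cell did not fall steadily with depth. Their medians were 6.5, 61 and 50 from the shallowest to the deepest tercile. In the cells with at least 3 markers they were 48, 88 and 50.

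In library 2, whose terciles began at 4890, 13483 and 19581 UMIs, the levels of the terciles differed less. UMIs of the 8 genes per cell rose there, with medians of 12, 40 and 93 from the shallowest to the deepest tercile. Cd9 went from 1210 CPM (1040 to 1399) to 966 to 843 CPM (769 to 922), Itga2b from 804 to 558 to 498 CPM, and Gp5 from 691 to 299 to 224 CPM. The shallowest tercile exceeded the deepest by 3.09-fold (2.36 to 4.03) for Gp5, compared with 2.58-fold (1.71 to 3.80) in library 1, and by 2.93-fold (1.49 to 5.67) for Gp6. For Itgb3 and Gp1ba, the ratios of 0.899 (0.556 to 1.40) and 1.25 (0.590 to 2.45) had intervals that included 1. Gp1bb was lower in the shallowest tercile, 572 CPM compared with 836 CPM in the deepest (ratio 0.684, 0.537 to 0.862), as was Pf4 with 4479 compared with 14641 CPM. In library 1, both were higher in the shallowest tercile, Pf4 with 25621 compared with 10362 CPM. With the marker-positive cells alone, the ratio of Gp1bb turned to 1.11, with an interval (0.868 to 1.39) that included 1, while that of Pf4 was 0.494. In library 1 these ratios were 3.52 and 3.50. The ratios of the summed 8 genes were 4.41 (4.04 to 4.80) in library 1 and 1.35 (1.23 to 1.48) in library 2 with all Mk cells, and 6.22 and 2.17 with the marker-positive cells. The share of cells that passed the marker limit rose with depth in library 1, from 13 of 26 to 25 of 27. In its shallowest tercile the cells that passed held 684 of the 687 UMIs of the 8 genes. The larger ratios with these cells thus follow in part from the filter. The ratios also depended on the split. With all Mk cells in 2 groups of like size by depth, the summed ratios were 3.09 and 1.51. Gp5 was then at 4.35 (3.61 to 5.23) in library 1 and 2.89 (2.31 to 3.63) in library 2, the other order of libraries. Cd9 in library 1 was at 3.59, and Gp1bb in library 2 at 0.998 (0.852 to 1.17). The marker counts were 10 of 19, 18 of 18 and 17 of 19 cells, and adult globin made up 10.5%, 0.820% and 6.25% of UMIs in the 3 terciles of library 2, and 2.14%, 4.10% and 0.775% in those of library 1. Mitochondrial UMIs made up 3.79%, 6.23% and 2.78% in library 1 and 3.42%, 2.63% and 2.55% in library 2. The part of these shares in the depth pattern was not tested.

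**Figure D4:**
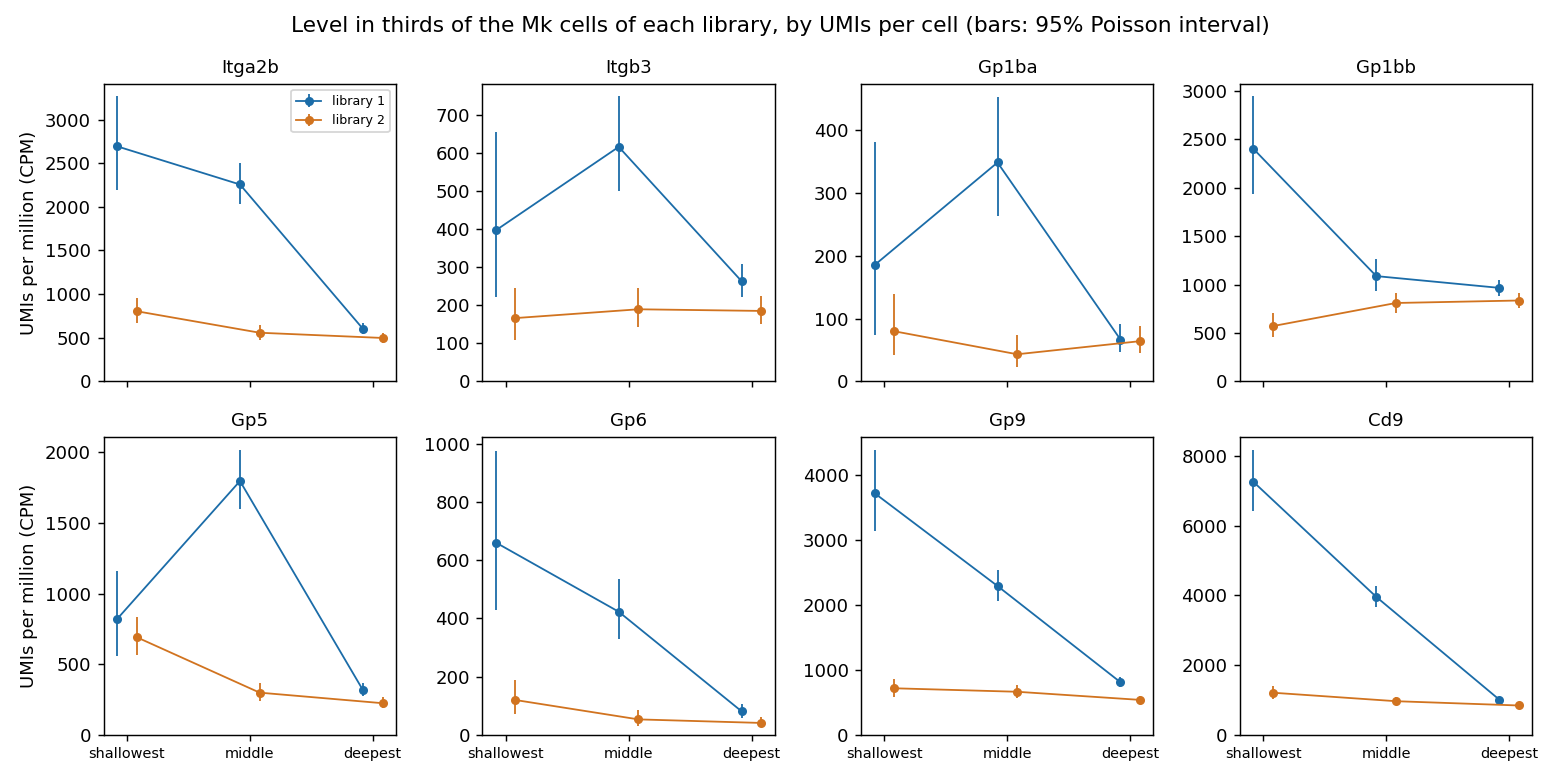
Level of each gene (CPM, from 0) in the shallowest, middle and deepest tercile of the Mk cells of library 1 (blue) and library 2 (orange), with bars for the 95% Poisson interval. In library 1, 5 of the 8 genes fall from tercile to tercile and Gp5, Itgb3 and Gp1ba peak in the middle. In library 2, the terciles lie closer together and Gp1bb is lowest in the shallowest.

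The genes varied together across single cells, and Gp1bb stood closest to Pf4. In the 85 Mk cells with at least 3600 UMIs and at least 3 of the 9 markers, the Pearson correlation of log2(CPM + 100) between pairs of the 7 other genes was between 0.75 and 0.88. Between Gp1bb and these 7 it was between 0.43 and 0.59. With Pf4, the correlation was 0.69 for Gp1bb and between 0.20 and 0.48 for the others. Cells of 1 library share its depth range, and the cells are not replicates, so these values describe these cells only. The 85 cells pool both libraries, whose levels differed. Over all Mk cells, the ratio of library 1 to library 2 was 1.35 for Gp1bb, 1.87 to 3.21 for the other 7 genes and 0.934 for Pf4. The levels also changed with depth. In marker-positive cells of libraries 1 and 2, the ratio of the shallowest to the deepest tercile was 6.22 and 2.17 for the summed 8 genes. It was 3.52 and 1.11 for Gp1bb and 3.50 and 0.494 for Pf4. The part of the library difference and of depth in the correlations was not tested. In 9 Mk cells with no Pf4 UMI, 5 or more of the receptor genes were detected, at 1233 CPM of Itga2b, 1159 CPM of Gp5 and 358 CPM of Gp1bb. Of the 32 cells with all 8 genes, 13 had less than 1% of their UMIs from Pf4, and these held a median of 1.71% of their UMIs from the 8 genes, compared with 1.77% in the other 19. These medians are not at like depth. The 13 cells, 10 and 3 of libraries 1 and 2, had a median of 5666 UMIs, and the 19, 10 and 9, one of 13939. Itgb3, Gp1bb (1075 and 2214 CPM), Gp6, Gp9 and Cd9 were lower in the 13 cells. Itga2b (2076 and 1681 CPM), Gp1ba and Gp5 were higher.

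Outside Mk cells, the 8 genes came apart. Cd9 was next highest in granulocytes (G), at 202 and 109 CPM in libraries 1 and 2, followed over both libraries by hepatoblasts (Hepa, 98.6 CPM), endothelial cells (ECs, 79.6 CPM), HPSC (52.6 CPM) and monocytes and Kupffer cells (Mo/KC, 35.2 CPM). The intervals of hepatoblasts (83.1 to 116) and ECs (61.6 to 101) overlapped. In erythroblasts (Eryb) it was 2.13 CPM. Gp6 stood at the other end, with 5 UMIs in erythroid-committed progenitors (Ery), 4 in Eryb and 0 in the other 6 types. Free RNA at 10% would have given 7.58 and 11.6 Gp6 UMIs there.

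Itga2b was next highest in ECs, where the libraries had 57.2 CPM (32.0 to 94.4) and 21.2 CPM (10.9 to 37.0). These were 15 UMIs in 9 of 20 cells and 12 UMIs in 8 of 26 cells. Of the genes that accompany Itga2b in Mk cells, Itgb3, Gp1bb, Gp5, Gp6 and Gp9 had 0 UMIs in ECs, which at the floor of 3 counts allows up to 3.62 CPM over both libraries, and Gp1ba had 2. Free RNA at 10% of the UMIs of ECs would have given 1.84 UMIs of Itga2b compared with the 27 counted, and 2.02 UMIs of Gp9.

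In G cells, the Itga2b levels of libraries 1 and 2 were 24.8 CPM (18.3 to 33.0) and 20.6 CPM (14.6 to 28.1), and Itgb3 had 5.29 and 5.80 CPM, its highest level outside Mk cells. G cells with a UMI of Cpa3, which encodes a protease of mast cells and basophils, numbered 79 of 287. Itga2b was at 49.1 CPM (34.0 to 68.6) and 43.1 CPM (28.6 to 62.2) in these cells, compared with 10.8 CPM (5.77 to 18.5) and 8.83 CPM (4.41 to 15.8) in G cells without one. Of the 55 G cells with an Itga2b UMI, 37 also held Cpa3. For Itgb3 the levels over both libraries were 10.4 CPM (5.70 to 17.5) with Cpa3 and 2.86 CPM (1.15 to 5.90) without, intervals that overlapped. A cell with more UMIs has a higher chance of a UMI of both genes, so these counts are not independent of depth.

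Gp9 had another order of types than Gp1bb and Gp5. After Mk cells it was highest in HPSC (21.9 CPM over both libraries, 18.5 to 25.8), followed by Ery (15.4 CPM) and Eryb (10.8 CPM, 9.96 to 11.6), and the intervals of HPSC and Eryb did not overlap. It had 0 UMIs in ECs. In Mk cells, 0.979 Gp9 UMIs (0.913 to 1.05) were counted per Gp1bb UMI, and in free RNA 1.51 (1.10 to 2.07). In HPSC the ratio was 10.3 (5.93 to 19.3) and in Eryb 11.7 (8.88 to 15.7). These rest on 14 Gp1bb UMIs in HPSC and 55 in Eryb, where free RNA at 10% would have given 11.6 and 103. Per Itga2b UMI, 1.15 Gp9 UMIs (1.07 to 1.24) were counted in Mk cells. In HPSC this was 2.94 (2.11 to 4.15) and in Eryb 2.63 (2.27 to 3.06). Free RNA at 10% would have given 152 Gp9 UMIs in Eryb, compared with the 644 counted.

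Gp1bb and Gp5 were next highest after Mk cells in Ery, with 7.31 CPM (6.47 to 8.24) and 6.13 CPM (5.36 to 6.98) over both libraries. The deposited table splits Ery and Eryb into 6 clusters, and the first of them, Ery 1, held 250 of the 271 Gp1bb UMIs and 214 of the 227 Gp5 UMIs of Ery. Gp1bb had 12.1 CPM in Ery 1 of library 1 and 14.1 CPM in that of library 2, compared with 1.20 and 1.15 CPM in Ery 2. Gp5 went from 11.0 and 11.3 CPM in Ery 1 to 0.544 and 0.919 CPM in Ery 2. Itga2b went from 22.0 and 21.5 CPM to 4.68 and 6.32 CPM, and Cd9 from 34.0 and 28.8 CPM to 5.01 and 8.39 CPM. Gp9 showed a smaller step, from 20.5 and 17.6 CPM to 11.9 and 11.1 CPM. Its number of UMIs per Gp1bb UMI rose from 1.46 (1.24 to 1.72) in Ery 1 to 9.81 (6.25 to 16.2) in Ery 2. This number was 17.5 (10.4 to 31.7) in Ery 3 and 14.6 (8.66 to 26.5) in Ery 4. It was 4.80 (2.40 to 10.6) in Ery 5 and 7.67 (4.46 to 14.1) in Ery 6. From Ery 2 on, each cluster had 10 to 21 Gp1bb UMIs.

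**Figure D5:**
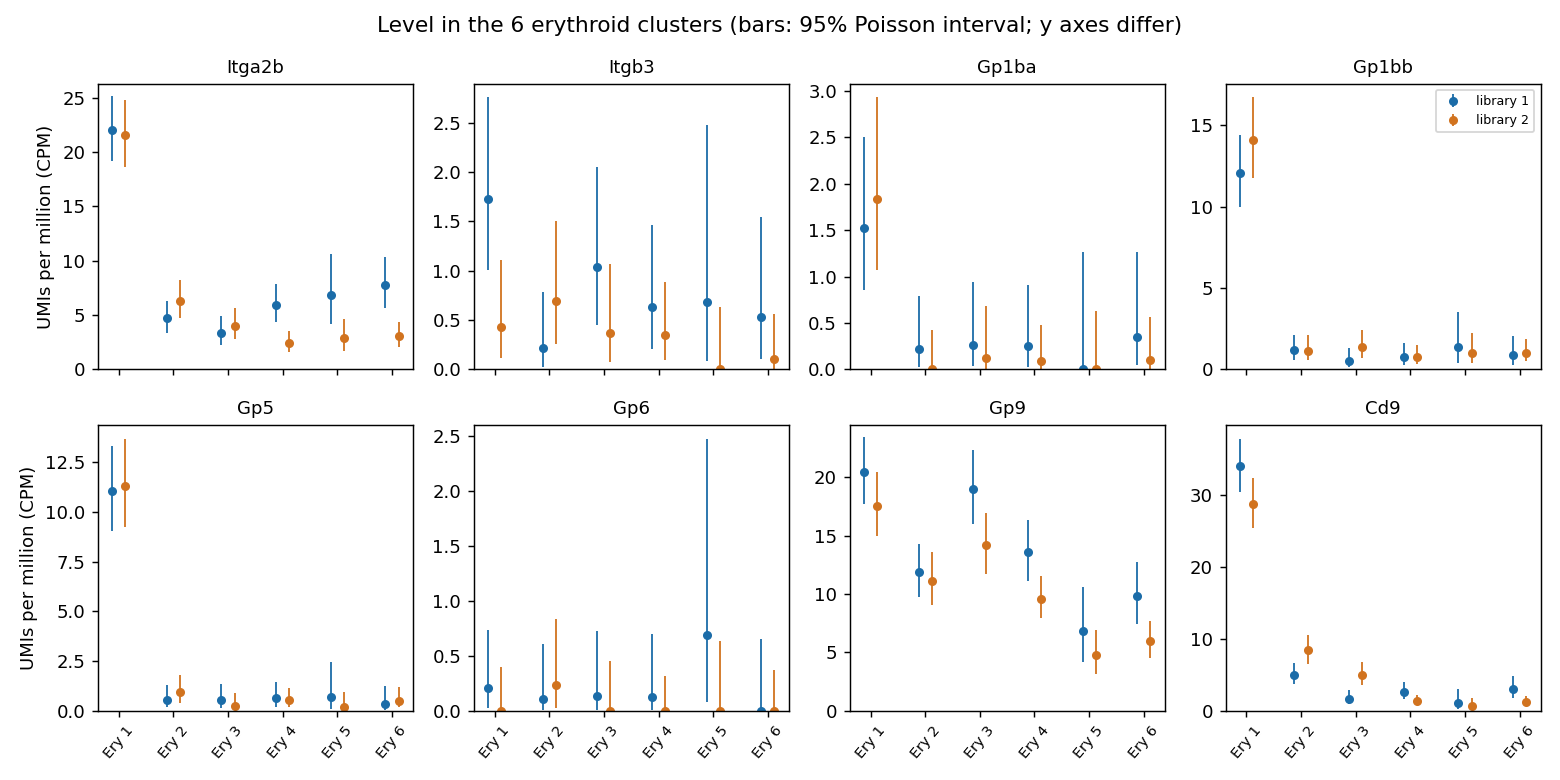
Level of each gene (CPM, linear axes that differ between panels) in the 6 erythroid clusters of the deposited table, with points for library 1 (blue) and library 2 (orange) and bars for the 95% Poisson interval. Itga2b, Gp1bb, Gp5 and Cd9 stand out in Ery 1 in both libraries, whereas Gp9 keeps 11.9 and 11.1 CPM in Ery 2 and Gp6 is near 0 throughout.

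Some Ery 1 cells held several of the genes. At least 3 of the 7 genes other than Cd9 were detected in 91 of 734 Ery 1 cells (12.4%, 10.1 to 15.0%), 47 of 375 in library 1 and 44 of 359 in library 2. This compares with 5 of 1016 Ery 2 cells, 2 of 7432 Eryb cells, 7 of 421 HPSC and 101 of 135 Mk cells. The cells were not thinned, and their depth differed. Median UMIs were 26043.5 in Ery 1, 19479 in Ery 2 and 5969 to 10169.5 in Ery 3 to Ery 6. In HPSC of libraries 1 and 2 they were 16053 and 14956. The part of depth in the contrast was not tested. The 91 cells had a median of 21164 UMIs, compared with 26856 in the other 643 cells of Ery 1. Plek, a protein kinase C substrate of platelets, was detected in 53 of the 91 cells and in 43 of the 643, Nrgn in 78 and 375, and Treml1, a receptor of platelet alpha granules, in 51 and 89. Pf4 was detected in 18 of the 91 and 84 of the 643 cells, at 71.6 and 6.46 CPM. Of the other markers, Gata1 was detected in 86 and 605 cells, Ppbp in 3 and 19, Vwf in 5 and 27, and Thbs1 in 7 and 9. Ppbp was at 38.8 and 1.40 CPM, the former from the UMIs of 3 cells. The erythroid genes did not all move the same way. Klf1, a transcription factor of erythroid cells, was detected in 70 of the 91 and 616 of the 643 cells, Epor, the erythropoietin receptor, in 64.8% and 87.6%, and Rhd in 52.7% and 85.5%. Car1, a carbonic anhydrase, was detected in 49.5% and 47.0%, at 146 and 69.8 CPM, and the globin gene Hbb-bs was at 10701 CPM in the 91 cells and 6470 CPM in the others. Whether pairs of cells in 1 droplet contributed to the 91 cells was not tested. The number of such cells expected if each gene were detected independently was not computed.

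Beside the 8 genes, 4 lists of genes of the same pathways were compared between Mk and HPSC by the same limit of 4-fold in both libraries. Of all tested genes, 3.15% were higher and 3.33% lower, and their median log2 ratio was -0.05. Of 14 other integrin, tetraspanin and scavenger receptor genes of platelets, 10 had enough counts and 0 passed in either direction, a share near those of 3.15% and 3.33% of all tested genes, with a median log2 ratio of 1.04. Itgb1, the shared beta chain of the collagen and fibronectin receptors, was at 196 and 145 CPM in Mk cells and 57.4 and 71.0 CPM in HPSC. Itga6, a chain of laminin receptors, was at 110 and 62.1 CPM compared with 18.6 and 19.5 CPM. Of the 14 agonist and immune-type receptors, 13 had enough counts, 9 were higher in Mk cells, compared with 3.15% of all tested genes, and 0 lower, and the median log2 ratio was 2.99. Among the 9, Clec1b, F2rl2 and G6b had 3, 10 and 2 HPSC UMIs over both libraries. They reached the count limit through Mk cells, so the filter largely fixed their call. Treml1 and P2ry1, with 28 and 31 HPSC UMIs over both libraries, also reached it only with Mk UMIs. The count of 9 is thus a description. Clec1b, which encodes the podoplanin receptor CLEC-2, was at 1121 and 362 CPM in Mk cells on 3 HPSC UMIs in all. F2rl2, the thrombin receptor PAR3, was at 503 and 387 CPM compared with 1.45 and 1.60 CPM, and P2ry1, an ADP receptor, at 181 and 66.1 CPM compared with 4.64 and 4.80 CPM. P2ry12, the other ADP receptor, had 54.5 and 11.8 CPM compared with 3.48 and 4.16 CPM and did not pass in both libraries.

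Of the 21 partners that act close to the receptors, all had enough counts, 9 were higher in Mk cells, compared with 3.15% of all tested genes, and 1 was lower, compared with 3.33%, with a median log2 ratio of 2.05. Among the 9, Vwf, Parvb and Src had 3, 11 and 14 HPSC UMIs over both libraries, so the filter largely fixed their call too. Rap1b, the small GTPase that activates integrins, was at 2506 and 2021 CPM compared with 188 and 179 CPM. Apbb1ip, which encodes the Rap1 effector RIAM, was the gene that was lower, with 13.0 and 9.86 CPM compared with 67.8 and 69.1 CPM. Lat, the adaptor of GPVI signalling, was at 414 and 352 CPM compared with 20.3 and 14.1 CPM, and Vwf, the ligand of the GPIb-IX-V complex, at 117 and 89.7 CPM on 3 HPSC UMIs. Of the 12 megakaryocyte transcription factors, all had enough counts, 5 were higher, compared with 3.15% of all tested genes, and 0 lower, with a median log2 ratio of 1.41. Gata1 was at 313 and 187 CPM compared with 12.8 and 14.1 CPM. Fli1, an ETS factor, was at 168 and 165 CPM compared with 57.4 and 42.6 CPM, a ratio below the limit.

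The genes whose levels over the 9 types and 2 libraries were most like the mean of the 8 genes were Cap2, G6b, F2rl2, Rab27b and Tmem163, each with a Pearson correlation of 0.99 on a log scale with a pseudocount of 10 CPM. The 18 points share 2 libraries and a single high type, and 11593 genes were compared. Among the 8 genes themselves, the correlation with the mean of the other 7 was highest for Itgb3 (0.99) and lowest for Itga2b (0.94) and Cd9 (0.81) with Gp9 at 0.95.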

How the data were processed

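Gene counts came from scRNA-seq of 1 liver in 2 technical replicate 10x Chromium libraries. The authors deposited raw UMI counts per gene and barcode, for all barcodes and for called cells, and a table of cell types. Per the submitters' processing notes they used bcl2fastq 2, Cell Ranger 2.1.1, Seurat 3.2.0 and mm10. The matrix header of library 1 names version 3.0.0. UMIs were summed per cell type and library and divided by the total (CPM). Ratios carry exact conditional binomial intervals, which cover counting error only. A count of 0 carries a floor of 3 counts per library, or over both where values are pooled. Cells were thinned to 3600 UMIs (1 draw, seed 1). No droplets holding pairs of cells were removed here. The named genes are the 8 members, the members of the lists and the 5 most alike genes. The members and lists were chosen with earlier results of these data known. The result for a further gene is not reported here. The counting statistics were tested on simulated data. The kept cells held 51969226 and 62738015 UMIs. Alternatives were each library alone, other limits, scales, depths and filters. The cells with at least 3 markers and the common UMI minimum were chosen after seeing the data. Python 3.11.15, numpy 2.4.6, scipy 1.17.1, pandas 2.3.3 and matplotlib 3.10.9 were used.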

Additional observations from a re-analysis of the deposited data

Results flagged for a closer look

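Of 402813 barcodes not kept in library 2, 41 held at least 5 UMIs of the 8 genes in sum, from at least 3 genes. This is a signal in data that the comparisons did not use. The 41 barcodes were picked by these UMIs, so their share of the 8 genes follows in part from the choice. They had 171 to 4274 UMIs (median 2103), below the lowest kept cell of that library, and none had been called a cell. The 8 genes made up 1000 of their UMIs, or 1.16%, 38 of them held Pf4 and 4 held all 8 genes. Free RNA would be expected to give 0.445 UMIs of the 8 genes in a barcode of 4387 UMIs. Library 1 had 1 such barcode outside its kept cells, with 156 UMIs, and 21 of its kept Mk cells with fewer than 4387 UMIs met the same limits.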

How the results depend on the processing

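Itga2b, Gp9 and Cd9, whose call the filter on low counts did not fix, stayed at least 4-fold higher in Mk than in HPSC under each of the alternatives run, and no ratio of the 8 genes changed direction. No paired analysis was possible because the libraries form 1 group and no test was made. Over both libraries, the ratio of Gp1ba was 597, that of Gp5 432 and the bound for Gp6 241. With each library alone, the ratios ran from 151 to 188 for Gp1ba (the former a bound), 449 to 493 for Gp5 and 58.5 to 208 for Gp6, and the median over the 8 genes from 89.8 to 186, compared with 203, with Gp6 at its bound. With the mean of single-cell CPM they were 565 for Gp1ba, 743 for Gp5, 530 for Gp6, 60.7 for Gp9 and 50.1 for Cd9, and the median was 344. The value for Gp6 rests on a floor there too, as it had no HPSC UMI. With free RNA subtracted at the assumed 10%, a share too high for erythroblasts, the ratios were 279 for Itgb3, 2459 for Gp1bb and 1723 for Gp5. For Gp1ba the value was then 199, a bound at the floor, since its 1 HPSC UMI was below the 1.19 expected from free RNA. Without the Mk cells richest in adult globin, Gp1ba was at 640. In the marker-positive cells Gp1ba was at 688 and Gp5 at 496, and at the common UMI minimum at 544 and 379.

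Of all genes, 270 passed the 4-fold limit, compared with 357 to 455 with 1 library, 141 at 8-fold, 630 at 2-fold and 491 with no filter. Of the 5 most alike genes, 0 were shared with the Spearman correlation and 2 with log2(CPM + 1). The median thinned share of 59.3% was 68.9% without thinning, 69.3% at 7200 UMIs, 39.2% for at least 2 UMIs, 57.1 to 57.6% with 1 library and 70.6% in marker-positive cells. The median dispersion of 20.9 was 7.26 after thinning and 15.3 to 19.2 with 1 library. These ratios rest on 0 to 14 HPSC UMIs for Itgb3, Gp1ba, Gp1bb, Gp5 and Gp6, which limits them.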
